A study of Mus musculus with 10 samples.

Results

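The Ly6 (lymphocyte antigen 6) genes encode small proteins of the cell surface that are held in the outer leaflet of the membrane by a glycosylphosphatidylinositol (GPI) anchor and share a compact, cysteine-rich fold. Several of them are the antigens by which mouse blood and vascular cells are recognised, and some are induced by interferons. In the uterus their transcripts can come from epithelium, vessels, fibroblasts and leukocytes. The members described here are *Ly6a*, *Ly6i*, *Ly6e*, *Ly6c1*, *Ly6c2*, *Ly6g* and *Ly6d*, taken by gene symbol. They are 7 of the 45706 genes in the count table, and all 7 were among the 25146 genes that averaged 1 count or more per uterus and were tested.

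Whole uteri of adult female mice were collected on gestation day (GD) 3.5 after mating, 1 library per uterus, with 5 controls of the genotype *Arid1a f/f* and 5 mutants of the genotype *Ltf iCre/+ Arid1a f/f*. Both genotypes carry the floxed allele of *Arid1a*, a subunit of the SWI/SNF chromatin remodelling complex, on a mixed background of 129P2/OlaHsd, 129S1/SvImJ, 129S6/SvEvTac and C57BL/6. In the mutants, an iCre recombinase expressed from the lactoferrin (*Ltf*) locus acts in the endometrial epithelium of adult females. The study adds that this iCre has been reported in myeloid cells too, neutrophils included. Its flow cytometry, which reads surface protein, found uterine neutrophils positive for Ly6G unchanged between genotypes. Uterine cells with macrophage markers and Ly6C were increased, and those without Ly6C were decreased. The study saw no myeloid change in spleen or peritoneal fluid. It still could not exclude that deletion of *Arid1a* in myeloid cells contributed. The libraries held between 59296537 and 72702411 counts.

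*Arid1a* itself stood at 213 ± 22.9 CPM (reads counted on a gene after scaling all libraries to the same size; SD, n = 5) in controls and 185 ± 15.9 CPM in mutant uteri, a log2 difference of -0.20 ± 0.09 (SE) that did not pass the test (edgeR adjusted p = 0.20). *Ltf* stood at 4.75 ± 3.92 CPM in controls and at 23.6 to 2831 CPM in mutant uteri (log2 difference 7.23 ± 1.36, edgeR adjusted p = 0.0092). The 2831 CPM was that of mutant replicate 5, and the other mutant uteri reached at most 383 CPM. Its call held in 10 of 10 fits without 1 uterus. A pair of mutant libraries stood apart. Replicate 5 held 980 CPM of 14 summed neutrophil markers against 20.8 to 35.1 CPM in the other 4 of its genotype and 19.5 to 37.0 CPM in controls. Replicate 1 held 3463 CPM of 14 summed epithelial markers, the most of any uterus, and was the highest uterus for 18.2% of tested genes, as replicate 5 was for 15.2%. Results that rest on these uteri are therefore given with and without them.

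Between genotypes, the quasi-likelihood test of edgeR, adjusted by Benjamini-Hochberg, called 9.7% of the tested genes (2438 of 25146) at an adjusted p under 0.05, 5.19% higher and 4.51% lower in mutant uteri. It called 2 of the 7 members. *Ly6c1* fell to less than its control range in every mutant uterus, and *Ly6g* rose from a very low level. The other 5 did not pass the test. DESeq2, which called 19.0% of the genes it tested, also called *Ly6c1* and *Ly6g* and none of the other 5, of which *Ly6i* was given no adjusted p. In 6 of the 7 members, all but *Ly6c1*, the highest value of the 10 uteri was that of mutant replicate 5. The uterus is a mixture of cells, so that fewer cells of a type and less RNA per cell cannot be told apart in these values.

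**Figure D1:**
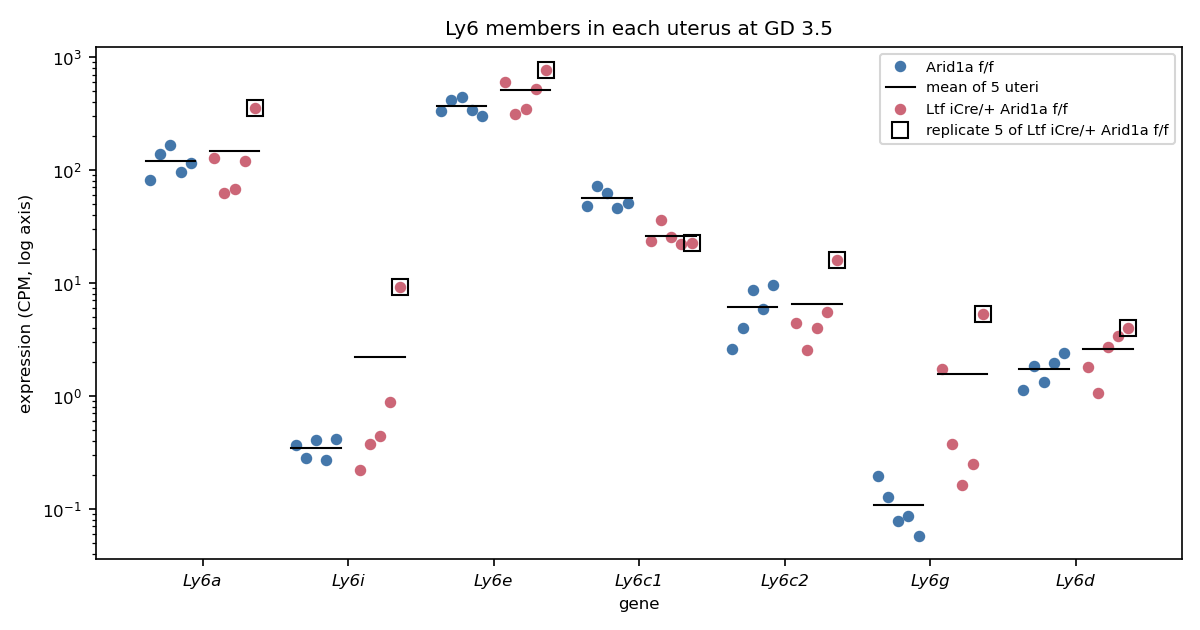
Expression of the 7 Ly6 members in CPM on a log axis, 1 point per uterus (n = 5 per genotype, replicates 1 to 5 from left to right), with a bar at the mean of each genotype and a square around mutant replicate 5. *Ly6c1* is the member whose genotypes do not overlap, and the square marks the highest uterus of each of the other 6.

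The 7 genes lie within 397 kb of chromosome 15 (GRCm38), with 24 annotated genes of the table from the first to the last of them. From the lower-numbered end they are *Ly6d* (chr15:74762056-74763620, minus strand), *Ly6e* (chr15:74955051-74959905, plus strand), *Ly6i* (chr15:74979534-74983430, minus strand), *Ly6a* (chr15:74994877-74998031, minus strand), *Ly6c1* (chr15:75044018-75048830, minus strand), *Ly6c2* (chr15:75108158-75111970, minus strand) and *Ly6g* (chr15:75155240-75159126, plus strand). *Ly6c1* and *Ly6c2* are near-identical in their coding sequence, with 384 of 393 bases the same (97.7%). *Ly6a*, *Ly6i*, *Ly6g* and the Ly6c pair were 77.4% to 86.3% identical among themselves, and *Ly6d* and *Ly6e* were 46.1% to 52.3% identical to any other member. The stretch of 60 coding bases in which the Ly6c pair differed most is shown because it holds 6 of the 9 coding bases that tell their reads apart. It runs from coding base 6 to 65, at chr15:75048447-75048506 in *Ly6c1* and chr15:75111603-75111662 in *Ly6c2*, read on the minus strand within 1 exon, and capitals mark the bases that differ.
Ly6c1: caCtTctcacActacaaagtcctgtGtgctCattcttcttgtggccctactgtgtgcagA
Ly6c2: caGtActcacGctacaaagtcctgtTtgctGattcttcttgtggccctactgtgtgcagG
Elsewhere in the coding sequence the pair shares a run of 188 identical bases, longer than the 50-base reads. Of the distinct 50-base words in the annotated transcripts of *Ly6c1*, 32.8% also occur in transcripts of another gene, and for *Ly6c2*, *Ly6a* and *Ly6i* the shares are 14.5%, 19.0% and 4.76%. For *Ly6g* the share is 0.448%, and for *Ly6d* and *Ly6e* no word is shared (0 of 695 and 0 of 4184). A read from a shared stretch cannot be assigned to 1 of these genes by its own sequence, although its mate may lie outside the stretch. This makes the counts of *Ly6c1*, *Ly6c2*, *Ly6a* and *Ly6i* less certain than those of *Ly6d*, *Ly6e* and *Ly6g*.

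RefSeq promoter windows (GRCm38.p6, from 250 bases before to 50 bases after the start site) were at hand for *Ly6c1* (chr15:75048788-75049087, minus strand), *Ly6c2* (chr15:75111922-75112221, minus strand) and *Ly6g* (chr15:75155011-75155310, plus strand), that is for 3 of the 7 members. They are shown because *Ly6c1* and *Ly6g* are the members that passed the test, in opposite directions, and *Ly6c2* is the near-identical neighbour of *Ly6c1* that did not. Capitals in *Ly6c1* mark bases that are unaligned to or differ from *Ly6c2*, and capitals in *Ly6c2* and *Ly6g* mark bases that are unaligned to or differ from *Ly6c1*.
Ly6c1: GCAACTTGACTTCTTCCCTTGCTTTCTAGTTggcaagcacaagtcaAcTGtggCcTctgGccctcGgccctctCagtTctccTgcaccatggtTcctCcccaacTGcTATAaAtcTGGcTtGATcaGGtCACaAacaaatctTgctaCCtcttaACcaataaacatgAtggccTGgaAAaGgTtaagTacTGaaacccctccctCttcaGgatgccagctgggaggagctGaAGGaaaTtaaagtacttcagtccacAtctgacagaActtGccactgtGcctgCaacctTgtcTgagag
Ly6c2: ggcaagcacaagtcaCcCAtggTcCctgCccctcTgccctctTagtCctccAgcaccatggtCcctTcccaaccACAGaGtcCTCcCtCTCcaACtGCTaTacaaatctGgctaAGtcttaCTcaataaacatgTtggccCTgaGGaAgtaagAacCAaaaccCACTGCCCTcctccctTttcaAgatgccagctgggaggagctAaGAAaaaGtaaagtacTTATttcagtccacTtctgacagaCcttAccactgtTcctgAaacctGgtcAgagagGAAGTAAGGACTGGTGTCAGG
Ly6g: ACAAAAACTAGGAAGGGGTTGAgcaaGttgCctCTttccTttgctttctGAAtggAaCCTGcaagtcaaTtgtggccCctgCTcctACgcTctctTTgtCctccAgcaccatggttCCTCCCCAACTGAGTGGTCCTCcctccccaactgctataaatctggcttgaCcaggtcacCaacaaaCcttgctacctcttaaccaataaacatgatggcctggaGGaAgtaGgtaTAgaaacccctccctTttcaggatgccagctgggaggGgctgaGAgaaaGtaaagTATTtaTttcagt
Over the aligned part the *Ly6c1* window was 73.8% identical to that of *Ly6c2* and 76.3% identical to that of *Ly6g*. The promoters of the Ly6c pair thus diverge more than their coding sequences (97.7% identical). The coding sequences of *Ly6c1* and *Ly6g* were 79.6% identical. The ETS-type motif GAGGAAGT, searched on both strands, occurred at 2 places in *Ly6c2* and at 1 in *Ly6g* but at none in *Ly6c1*. Of 32817 promoter windows, 3.2% hold it. Of the *Ly6c2* matches, 1 lay before the start site and 1 after it. The later match runs past the aligned ends of the *Ly6c1* and *Ly6g* windows, so the corresponding bases of those genes were not searched. Only the earlier place is covered by all 3 windows. The TATA-type motif TATAAA occurred at 1 place each in *Ly6c1* and *Ly6g* and was not found in *Ly6c2*, and 13.6% of windows hold it. The interferon-type motif TTCNNNGAA (8.29% of windows), the core of the interferon-stimulated response element (3.43%) and the palindromic estrogen response element (0.0701%) were found in none of the 3. These matches describe letters in a window and do not show that a factor binds there.

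*Ly6a* encodes Sca-1, the stem cell antigen carried by blood progenitors, endothelium and some fibroblasts and known as interferon-inducible. It stood at 80.9, 138, 168, 95.7 and 115 CPM in the control uteri and at 128, 61.9, 67.2, 120 and 352 CPM in the mutant uteri. The genotypes overlapped, with 4 of the 5 mutant uteri at or under the control maximum and replicate 5 far above it. The means were 119.5 ± 34.5 and 146 ± 119 CPM (log2 difference 0.29 ± 0.43, edgeR adjusted p = 0.73). Without replicate 5 the log2 difference was -0.34 (adjusted p = 0.46), so the direction of the difference rested on that uterus.

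*Ly6i*, the closest relative of *Ly6a* among the members, was scarce. It stood at 0.36, 0.28, 0.41, 0.27 and 0.42 CPM in controls and at 0.22, 0.37, 0.44, 0.87 and 9.22 CPM in mutant uteri. Replicate 5 was 19.4 times the mean of the other 4 uteri of its genotype, which themselves straddled the control range. The log2 difference of 2.68 ± 0.95 did not pass the test (edgeR adjusted p = 0.10), and without replicate 5 it was 0.46 (adjusted p = 0.50). With the counts of *Ly6a* and *Ly6i* summed into 1 gene, the log2 difference was 0.30 (edgeR adjusted p = 0.72).

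*Ly6e* encodes a broadly expressed, interferon-inducible member that also serves as the receptor of syncytin-A in the mouse placenta. It had the most counts of the members, with 335, 415, 439, 340 and 299 CPM in controls and 604, 312, 348, 519 and 763 CPM in mutant uteri. Replicates 1, 4 and 5 lay above every control, whereas replicates 2 and 3 lay within the control range. The means were 365.5 ± 59.2 and 509.5 ± 186 CPM (log2 difference 0.48 ± 0.23, edgeR adjusted p = 0.21), and the difference stayed positive when any uterus was left out (0.29 to 0.61). Without replicates 1 and 5, the 2 highest uteri, it was 0.11 (adjusted p = 0.77).

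*Ly6a* and *Ly6e* are both interferon-inducible in other settings, so 22 interferon response genes were read beside them. Of these, 1 was called, *Mx1* (log2 difference 1.38 ± 0.34, edgeR adjusted p = 0.027), or 4.55% against 9.7% of all genes (0 without control replicate 2, 4 or 5, and 0 without mutant replicates 1 and 5), while *Isg15* (0.54), *Ifit1* (0.43) and *Ifit3* (0.18) did not pass. The median log2 difference of the list was 0.34, against 0.03 for all tested genes, and 0.14 without mutant replicate 5. Its summed level ranged from 575 to 1145 CPM in controls and from 570 to 1421 CPM in mutant uteri, with 15 of the 22 genes highest in replicate 5. The part of the interferon response in the *Ly6a* and *Ly6e* values was not tested.

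The clearest difference was that of *Ly6c1*, which is carried by capillary endothelium as well as by some leukocytes. It stood at 48.2, 72.5, 61.9, 46.2 and 50.5 CPM in control uteri and at 23.4, 35.7, 25.2, 22.1 and 22.6 CPM in mutant uteri. All 5 mutant uteri lay below the lowest control, replicates 1 and 5 included. The mean went from 55.9 ± 11.1 to 25.8 ± 5.65 CPM, a 2.17-fold lower level (log2 difference -1.11 ± 0.16, edgeR adjusted p = 0.0029). An exact permutation test, two-sided and on log2 CPM, gave p = 0.00794, the smallest possible with 5 uteri against 5. The log2 difference lay between -1.26 and -1.01 and passed the threshold whichever of the 10 uteri was left out. Genes whose genotypes do not overlap made up 10.7% of all tested genes, and *Ly6c1* was 1 such gene of the 7 members.

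Endothelial markers were lower in the same uteri. Of 14 endothelial genes 11 fell and none rose, a share of 78.6% against 9.7% of all tested genes (8 to 11 called when 1 uterus was left out). The median log2 difference was -0.87, and 8 of the 14 did not overlap between genotypes, against 10.7% of all tested genes. Among the 11 that fell were *Pecam1*, the adhesion molecule CD31 (-0.93 ± 0.13, edgeR adjusted p = 0.0027), *Cdh5*, the cadherin of endothelial junctions (-1.26 ± 0.20, adjusted p = 0.0042), *Kdr*, a receptor of vascular endothelial growth factor (-0.72 ± 0.17, adjusted p = 0.024) and the angiopoietin receptor gene *Tek* (-1.21 ± 0.12, adjusted p = 0.00044). The *Kdr* call held in 6 of 10 fits without 1 uterus, and those of *Pecam1*, *Cdh5* and *Tek* in all 10. *Egfl7*, *Vwf* and *Sox17* did not pass. The list summed to 1354 to 1871 CPM in controls and to 745 to 1122 CPM in mutant uteri. Within each uterus, *Ly6c1* minus the mean of the list was -0.81 ± 0.25 log2 in controls and -1.08 ± 0.16 in mutant uteri, a difference of -0.27 that did not pass (exact permutation p = 0.079, adjusted over 3 such comparisons 0.095). *Ly6c1* and the endothelial list were both lower, and a difference in how much they fell was not detected at n = 5. The part of the endothelial markers in the *Ly6c1* result was not tested further.

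*Ly6c2* encodes the Ly6C form that marks circulating inflammatory monocytes. It stood at 2.59, 3.99, 8.70, 5.82 and 9.58 CPM in controls and at 4.44, 2.52, 3.94, 5.55 and 15.8 CPM in mutant uteri. The genotypes overlapped over most of their range, controls themselves spread widely, and replicate 5 was the highest uterus. The log2 difference was 0.08 ± 0.50 (edgeR adjusted p = 0.95) with all uteri and -0.58 without replicate 5 (adjusted p = 0.37).

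The near-identical pair therefore showed a called fall in 1 gene and no called change in the other. The difference between them, *Ly6c2* minus *Ly6c1* in log2 CPM, went from -3.32 ± 0.82 to -2.27 ± 1.19, a change of 1.04 that did not pass (exact permutation p = 0.12, adjusted over 3 pairs 0.16), so that the 2 genes are not shown to differ in their response. *Ly6c2* held 5.10% to 15.9% of the summed counts of the pair in controls and 6.59% to 41.2% in mutant uteri (exact permutation p = 0.13), with the 41.2% in replicate 5. With the counts of both summed into 1 gene, the log2 difference was -0.94 (edgeR adjusted p = 0.0039). Of the other pairs compared, *Ly6a* minus *Ly6c1* went up by 1.14 log2 (exact permutation p = 0.079, adjusted 0.16) and *Ly6a* minus *Ly6e* changed by -0.39 (exact permutation p = 0.16, adjusted 0.16), and neither passed.

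Beside *Ly6c2*, 2 of 9 inflammatory monocyte genes rose (22.2% against 9.7% of all tested genes). They were the secreted lectin *Chil3* (4.44 ± 1.21, edgeR adjusted p = 0.041) and the haemoglobin scavenger gene *Hp* (2.34 ± 0.35, adjusted p = 0.0029). *Chil3* stood at 8.48 CPM in replicate 5 and at no more than 1.13 CPM in the other mutants, and its call held in 4 of 10 fits without 1 uterus, while that of *Hp* held in all 10. *Ccr2*, the chemokine receptor by which monocytes leave the marrow, did not pass (0.72 ± 0.25, adjusted p = 0.090), but DESeq2 called it (adjusted p = 0.037). In all, DESeq2 called 4 of the 9 genes, against 19.0% of all genes it tested. Without replicate 5 edgeR called 1 of the 9. The list had a median of 0.72 (0.29 without replicate 5) and 7 of its 9 genes were highest in replicate 5. *Ly6c2* minus the mean of this list was -1.09 ± 0.55 log2 in controls and -1.80 ± 0.44 in mutant uteri (exact permutation p = 0.056, adjusted 0.095). Of 12 macrophage markers edgeR called 0, with 5 at an unadjusted p under 0.05, as were 6593 of all 25146 tested genes. DESeq2 called 3 of the 12, against 19.0% of all genes it tested.

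*Ly6g* encodes the antigen by which mouse neutrophils are recognised, and it was the scarcest member in controls. It stood at 0.20, 0.13, 0.08, 0.09 and 0.06 CPM in control uteri, which is 4 to 14 counts per library, and at 1.71, 0.37, 0.16, 0.25 and 5.32 CPM in mutant uteri. Replicates 1 and 5 were far above the others, replicates 2 and 4 were just above the highest control, and replicate 3 lay within the control range. The log2 difference was 3.82 ± 0.96 (edgeR adjusted p = 0.029), and the exact permutation test gave p = 0.016. This call was fragile. Without mutant replicate 5 the log2 difference was 2.50 (adjusted p = 0.046), and without replicates 1 and 5 it was 1.24 (adjusted p = 0.14). It was also lost when any of control replicates 2 to 5 was left out (3.66 to 3.87, adjusted p = 0.071 to 0.076).

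The neutrophil markers did not move with *Ly6g* in every uterus. Of 13 tested neutrophil genes 1 was called (7.69% against 9.7% of all tested genes), the collagenase *Mmp8* (5.99 ± 1.66, edgeR adjusted p = 0.044). *Mmp8* stood at 17.2 CPM in replicate 5 and at no more than 0.25 CPM in the other mutants. Its call held in 4 of 10 fits without 1 uterus. DESeq2 called 0 of the list, of which 9 had an unadjusted edgeR p under 0.05, as had 6593 of all 25146 tested genes. The median log2 difference of the list, 4.30, turned to -0.30 without replicate 5. *S100a8* and *S100a9*, the calprotectin subunits that are abundant in neutrophils, ranged from 0.30 to 1.26 and from 0.24 to 2.12 CPM in controls and reached 290 and 383 CPM in replicate 5, but neither passed (adjusted p = 0.073 and 0.081). *Elane*, a gene of immature neutrophil granules, was too low to be tested. In replicate 1 the list summed to 25.5 CPM, within the control range of 19.5 to 37.0 CPM, while *Ly6g* was 1.71 CPM against at most 0.20 CPM in controls. *Ly6g* minus the mean of the list was -2.84 to -0.60 log2 in controls, 1.58 in replicate 1, 0.14 in replicate 2 and -1.91 in replicate 5. The difference between genotypes in this measure was 1.42 and did not pass (exact permutation p = 0.095, adjusted 0.095).

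**Figure D2:**
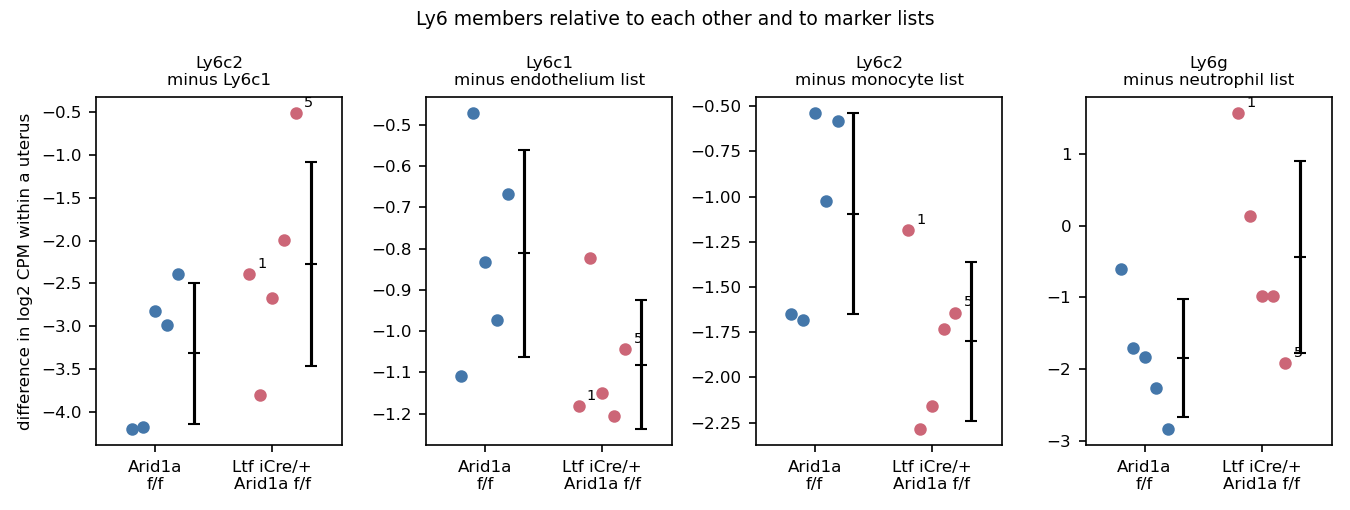
Difference in log2 CPM within each uterus between 2 members (*Ly6c2* minus *Ly6c1*) and between a member and the mean of its marker list, 1 point per uterus with mean ± SD (n = 5 per genotype) and the numbers of mutant replicates 1 and 5. *Ly6g* minus the neutrophil list is highest in replicate 1 (1.58) and lowest of its genotype in replicate 5 (-1.91), and genotypes overlap in all 4 panels.

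*Ly6d*, an antigen of early B lineage cells and of squamous epithelium, stood at 1.12, 1.83, 1.32, 1.93 and 2.37 CPM in controls and at 1.79, 1.05, 2.71, 3.36 and 3.95 CPM in mutant uteri. Replicates 3, 4 and 5 lay above all controls and replicate 2 below them. The log2 difference was 0.59 ± 0.35 (edgeR adjusted p = 0.32). The B and plasma cell list had 1 of 10 genes called, *Blk*, a kinase of B cells that some T cells also carry (2.41 ± 0.48, adjusted p = 0.011). Of 14 tested genes of stratified epithelium, 2 fell (14.3% against 9.7% of all tested genes). They were *Krt10* (-1.36 ± 0.33, adjusted p = 0.026) and the desmosomal cadherin *Dsg3* (-3.09 ± 0.53, adjusted p = 0.0058), while *Krt5* (-1.01) and *Trp63* (-0.48) did not pass. The *Krt10* call held in 5 of 10 fits without 1 uterus and that of *Dsg3* in all 10. Without mutant replicates 1 and 5, 1 of the 14 was called. *Ly6d* had a positive fitted difference while 9 of the 14 were negative.

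**Figure D3:**
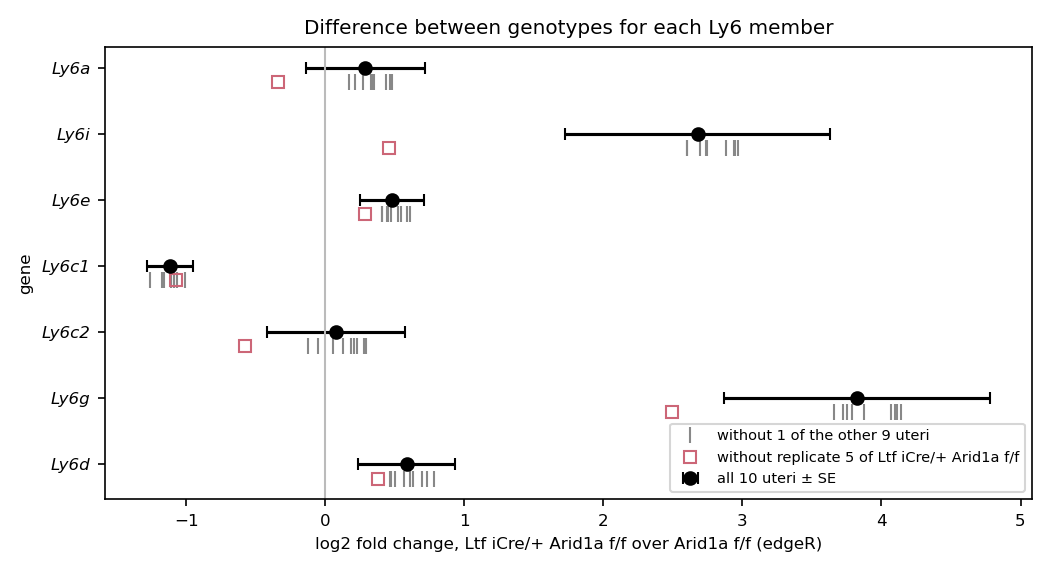
Fitted log2 fold change of each member (mutant over control, edgeR) with all 10 uteri ± SE (black), without mutant replicate 5 (red squares) and without each of the other 9 uteri (grey ticks). Leaving out replicate 5 moves *Ly6a* from 0.29 to -0.34, *Ly6i* from 2.68 to 0.46 and *Ly6g* from 3.82 to 2.50, while *Ly6c1* stays between -1.26 and -1.01.

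Levels between genes were compared per kilobase of annotated exon. In controls *Ly6a* (99.2 ± 28.6 CPM per kb) and *Ly6e* (96.6 ± 15.6) were the most abundant and overlapped, followed by *Ly6c1* (33.3 ± 6.63), which was 2.9 times lower than *Ly6e*. *Ly6d* (2.30 ± 0.67) and *Ly6c2* (2.24 ± 1.09) overlapped and came next, *Ly6d* being 14.5 times lower than *Ly6c1*. *Ly6i* (0.30 ± 0.06) and then *Ly6g* (0.12 ± 0.06) came last, and their control ranges did not overlap. In mutant uteri *Ly6e* (135 ± 49.2 CPM per kb) and *Ly6a* (121 ± 98.7) again overlapped at the top and *Ly6c1* was at 15.4 ± 3.37. *Ly6d*, *Ly6c2*, *Ly6i* and *Ly6g* were then not separated from each other in this order, since the ranges of *Ly6i* (1.92 ± 3.39) and *Ly6g* (1.66 ± 2.33) widened. With the longest transcript as the length, *Ly6e* stood at 160.3, *Ly6a* at 125.2 and *Ly6c1* at 66.2 CPM per kb in controls, so that the order of the first 2 depended on the length used.

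The variation between uteri also differed among members. The coefficient of variation in controls was 16.2% for *Ly6e*, 19.9% for *Ly6c1* and about the same for *Ly6i*, 28.8% for *Ly6a*, 29.2% for *Ly6d*, 48.7% for *Ly6c2* and 50.5% for *Ly6g*. In mutant uteri it was 21.9% for *Ly6c1* and 36.5% to 176% for the other 6, in each of which replicate 5 was the highest uterus. *Ly6c1* was thus about as even among the mutant uteri as among controls.

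For the 5 members with a mean of at least 100 counts, the genes outside the family that varied most like them were sought among 14574 genes of that abundance, by the correlation of deviations from the genotype means over the 10 uteri. The uteri share their libraries between genes, and these values are descriptive. For *Ly6a* they were *Slfn2* (Pearson r = 0.97, Spearman rho = 0.90), *Cxcl5* (r = 0.97, rho = 0.96) and *Cfb* (r = 0.96, rho = 0.93), and for *Ly6e* *Smpdl3b* (r = 0.97, rho = 0.99), *Mogat2* (r = 0.97, rho = 0.99) and *Adgrg6* (r = 0.96, rho = 0.98). For *Ly6c2* they were *Tlr8* (r = 0.97, rho = 0.94), *Tlr7* (r = 0.96, rho = 0.94) and *Nfxl1* (r = 0.95, rho = 0.91), the first 2 being endosomal receptors of RNA. For *Ly6c1* the first was *Osbpl11* (r = 0.94, rho = 0.99), ahead of *Ccdc136* and *Apbb1*, and for *Ly6d* it was *Itfg2* (r = 0.97, rho = 0.93), ahead of *Cage1* and *Zc3h12d*. Leaving out the 2 uteri farthest from the median of the member kept r at 0.86 to 0.98 for the genes of *Ly6a*, *Ly6c2*, *Ly6d* and *Ly6e*, whereas for *Ly6c1* it fell to 0.57 for *Apbb1*. The genes were chosen for their high r over uteri that include the 8 kept, so these values are no separate check.

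The wider Ly6 and urokinase receptor family was read beside the members. Of 35 further genes 24 were tested and edgeR called 4 (16.7% against 9.7% of all tested genes), all of them higher in mutant uteri. DESeq2 called 9, and 19.0% of all genes it tested. Among the 9, *Ly6k* (DESeq2 adjusted p = 0.0021), *Lypd6* (DESeq2 adjusted p = 0.028) and *Gpihbp1* (DESeq2 adjusted p = 0.047) were lower in mutant uteri. *Ly6g5b*, in the family's cluster on chromosome 17, rose from 0.56 ± 0.19 to 2.91 ± 1.93 CPM (log2 difference 2.37 ± 0.45, edgeR adjusted p = 0.0098) and *Pinlyp*, a phospholipase inhibitor gene, from 0.07 ± 0.07 to 0.62 ± 0.47 CPM (3.23 ± 0.68, adjusted p = 0.014). Both passed whichever uterus was left out. *Lypd6b* rose from 2.85 ± 0.71 to 7.51 ± 3.77 CPM (1.40 ± 0.31, edgeR adjusted p = 0.020) and passed in 8 of 10 such fits. *Ly6g6d*, which overlaps *Ly6g6e* on the opposite strand, rose from 1.37 ± 0.23 to 2.62 ± 0.79 CPM (0.94 ± 0.24, adjusted p = 0.030) and passed in 3 of 10. The genotypes did not overlap for these 4 genes called by edgeR and for *Gpihbp1*, 5 of the 24 tested, against 10.7% of all tested genes. *Gpihbp1* was lower, at 6.49 ± 1.44 CPM in controls and 4.04 ± 1.34 CPM in mutant uteri (edgeR adjusted p = 0.12). Replicate 5 was the highest uterus in none of the 4. It was so in 6 of the 35 relatives and in 6 of the 7 members. Of these relatives, *Ly6f* stood at 10.3 CPM in replicate 5 (at most 2.11 CPM in the other mutants) and *Cd177* at 9.56 CPM (at most 0.49 CPM). The most abundant relatives per kilobase did not pass: the complement inhibitor gene *Cd59a* (0.03 ± 0.21, adjusted p = 0.95), the nicotinic receptor modulator *Lynx1* (-0.11 ± 0.12, adjusted p = 0.63) and *Plaur*, the urokinase receptor (0.82 ± 0.30, adjusted p = 0.11).

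On chromosome 15, the neighbourhood of the members from *Jrk* to *Zfp41*, the protein-coding genes that flank the family, held 30 tested genes of 49. Of these 30, 3 were called, against 9.7% of all tested genes: *Ly6c1*, *Ly6g* and the unprocessed pseudogene *Gm10238* (chr15:75235597-75238768). *Gm10238*, chosen after its values were seen, fell from 5.68 ± 1.62 to 1.57 ± 1.26 CPM (log2 difference -1.85 ± 0.48, edgeR adjusted p = 0.034), although the call held in 2 of 10 fits without 1 uterus. *Ly6k*, also chosen after its values were seen and overlapped by an antisense gene, stood at 2.08 ± 1.24 CPM in controls and 0.30 ± 0.23 CPM in mutant uteri (-2.77 ± 0.81, edgeR adjusted p = 0.052, DESeq2 adjusted p = 0.0021). The flanking genes *Jrk* (-0.64 ± 0.24, adjusted p = 0.11) and *Zfp41* (-0.11 ± 0.13, adjusted p = 0.66) did not pass.

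**Figure D4:**
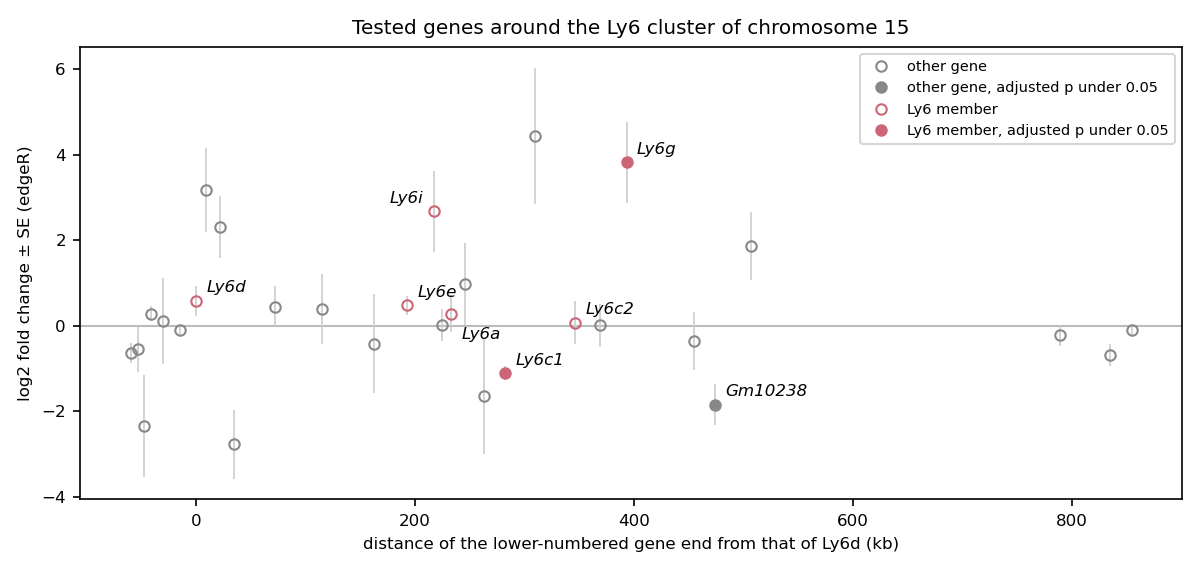
Log2 fold change ± SE (edgeR) of the 30 tested genes from *Jrk* to *Zfp41* on chromosome 15, against the distance in kb from *Ly6d*, with Ly6 members in red and filled points for an adjusted p under 0.05. *Ly6c1* (-1.11), *Ly6g* (3.82) and *Gm10238* (-1.85) are the filled points, and the other members lie between 0.08 and 2.68.

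The remaining lists gave the cellular setting of these values. The share of all tested genes called was 9.7%. Of 14 epithelial genes 10 rose (71.4%; 4 to 11 when 1 uterus was left out, lowest without control replicate 3), among them the keratin gene *Krt8* (0.87 ± 0.20, edgeR adjusted p = 0.022) and the adhesion molecule gene *Epcam* (1.19 ± 0.32, adjusted p = 0.037), whose calls held in 7 and 3 of 10 such fits. Of 12 T cell genes 6 rose (50.0%), led by the receptor chains *Cd3g* (2.39 ± 0.42), *Cd3d* (2.07 ± 0.34) and *Cd3e* (2.04 ± 0.34). Of 11 stromal genes 2 fell (18.2%), *Dcn* (-0.65 ± 0.13) and *Vim* (-0.94 ± 0.20), and of 8 genes of adventitial fibroblasts, which carry Sca-1, 2 fell (25.0%), *Pi16* (-1.27 ± 0.21) and *Cd248* (-0.69 ± 0.14). Of 26 genes for the synthesis and transfer of the GPI anchor that holds Ly6 proteins, 2 rose (7.69%, under the share of all genes), *Pigf* (0.50 ± 0.12, adjusted p = 0.024) and *Gpaa1* (0.39 ± 0.10, adjusted p = 0.027), with a median of 0.06, and 0 were called without control replicate 2, 3 or 4. The part of these cell types in the values of the Ly6 members was not tested.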

How the data were processed

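RNA of 10 uteri (5 *Arid1a f/f* and 5 mutant *Ltf iCre/+ Arid1a f/f*) was sequenced as mRNA libraries with paired reads of 50 bp. Per the submitters' processing notes, reads were trimmed with cutadapt 1.18 and Trim Galore 0.6.4 and aligned to GRCm38 with STAR 2.7.3a, whose gene counting gave the values. The authors deposited raw counts for 45706 Ensembl genes, 1 column per uterus, without normalization or filter. Which annotation release and which strand option were used is not given in the sources used here. No member overlaps another annotated gene.

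Symbols and positions came from GENCODE (GRCm38), which matched 45143 identifiers. Genes averaging 1 count or more were fitted with edgeR 4.0.16 in R 4.3.3 (TMM, quasi-likelihood test, genotype as the only factor, Benjamini-Hochberg over 25146 genes, threshold 0.05). CPM uses TMM library sizes, and log2 CPM a prior count of 2. Values are mean ± SD over uteri and log2 differences ± SE. Members and pairs were also tested with two-sided exact permutation tests. Replicates were separate uteri, and no pair of libraries of a genotype were duplicates (chi-square per gene of at least 33.3). The procedures were tested on simulated data.

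The members and lists were chosen with earlier results of these data known. Genes named were the 7 members, *Arid1a*, *Ltf*, called relatives and the 3 most abundant ones per kb, the first 3 and up to 4 most changed called genes of each list, the 3 genes most like each member and the genes flanking the cluster, and not all of these are printed. Of the wider family 35 of 36 written entries stand, since 2 named the same gene. Alternatives were DESeq2 1.42.0, its size factors in edgeR, 2 other filters, a replicate block, summed paralogs, another prior count, another gene length and the omission of each uterus. Added after seeing the data were the fit without mutant replicates 1 and 5, the members relative to marker lists and the *Ly6c2* share. Shared words and identities were computed from GENCODE transcripts with Biopython 1.88, and promoters were taken from RefSeq.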

Additional observations from a re-analysis of the deposited data

Results flagged for a closer look

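Of 14 groups of 5 uteri (7 members in 2 genotypes), 4 had 1 uterus whose gap to its nearest neighbour exceeded 0.71 of the range of the group, where chance marks about 5% of groups. In mutant replicate 5 these were *Ly6a* at 351.6 CPM, *Ly6c2* at 15.84 CPM and *Ly6i* at 9.216 CPM, which come from the same library and are not independent of each other. *Ly6c1* was marked in replicate 2 of the same genotype, at 35.67 CPM, the highest of its genotype and still below every control.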

How the results depend on the processing

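*Ly6c1* kept its direction and its call in every alternative run, and *Ly6d*, *Ly6e* and *Ly6i* kept their direction and stayed uncalled, although DESeq2 gave no adjusted p for *Ly6i*. Without mutant replicates 1 and 5 these were 0.47, 0.11 and 0.70, and *Ly6c1* was -1.01. *Ly6a* turned to -0.34 without mutant replicate 5 and to -0.53 without replicates 1 and 5, with a range of -0.34 to 0.48 over the omission of 1 uterus. *Ly6c2* turned to -0.58 and -0.61 in the same fits, to -0.12 and -0.05 without control replicates 1 and 2, and to -0.0695 with the replicate block. Over the omission of 1 uterus it ranged from -0.58 to 0.29. The -0.94 of the summed counts of *Ly6c1* and *Ly6c2* is a value of the pair and not of *Ly6c2* alone. Most of those counts are of *Ly6c1* (mean of 2760 per uterus, against 425.3 for *Ly6c2*).

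*Ly6g* lost its call with the replicate block (2.75, edgeR adjusted p = 0.083) and without replicates 1 and 5 (1.24, adjusted p = 0.14), and ranged from 2.50 to 4.14 over the omission of 1 uterus. The members called were then 1 in the block and without replicates 1 and 5, and 1 to 2 over the omission of 1 uterus. The differences between pairs ranged from 0.60 to 1.43 (*Ly6c2* minus *Ly6c1*), from 0.70 to 1.49 (*Ly6a* minus *Ly6c1*) and from -0.62 to -0.31 (*Ly6a* minus *Ly6e*), and each passed in 1 of 10 such fits, with an exact permutation adjusted p of 0.048.

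DESeq2 called 4103 genes (19.0% of 21563) and 9 of the wider family, and the omission of 1 uterus left 1204 to 2381 genes, 2 to 6 relatives and 24 to 44 genes of the context lists called. The level per kb with the longest transcript moved to 66.2 for *Ly6c1* and 160.3 for *Ly6e*. Same-numbered uteri of the genotypes correlated at -0.05 to 0.13 in their deviations, with 1 of 5 pairs over 0.1 and 3 of 10 uteri closest to their own number. No pairing by number was thus detected, but 5 pairs cannot exclude one. The study compared littermates where it could, and the sample labels do not name them. The block lowered the genes called from 2438 to 1704. Other causes of these shifts were not tested. Counts of 4 to 14 per control library limit *Ly6g*.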
